A study of Rattus norvegicus with 9 samples.

Results

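The mitochondrial ribosomal protein genes were described in circulating mononuclear cells of rats across a model of pulmonary hypertension. They were taken by symbol: every gene whose symbol starts with Mrpl or Mrps followed by a digit, which gave 76 of the 22077 genes of the deposited table, 46 named Mrpl for the large subunit and 30 named Mrps for the small subunit. The rule used no measured value, but it was chosen with earlier results of these data known. The RNA came from peripheral blood mononuclear cells of wild-type Sprague-Dawley rats, sequenced as 3 libraries for each of 3 groups: normoxia on day 0, Sugen-hypoxia on day 28, and Sugen-hypoxia on day 56. In this model a blocker of the VEGF receptor is given and the rats are held in low oxygen for a time. All normoxia samples are from day 0, so treatment, day and age cannot be told apart. Nothing in the labels ties a replicate to an animal, and the p-values thus reflect the spread among these libraries alone, part of which may be technical.

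Mitochondria make a small set of their own proteins, all of them parts of the respiratory chain and the ATP synthase, on ribosomes of their own. The RNA of these ribosomes is transcribed from mitochondrial DNA, whereas every protein of them is encoded in the nucleus, made in the cytosol and imported, so that both genomes have to be expressed in step. Many of the proteins descend from those of bacterial ribosomes and the others were added during the evolution of mitochondria. In blood, activated lymphocytes build up this machinery before they divide, and maturing red cells lose it with their mitochondria.

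The libraries held 22148400 to 39947430 exon reads, of which the 76 genes took 21350 to 46721. The libraries differed in more than group. The 5 globin-locus genes took 43.0% to 56.3% of exon reads in normoxia, 1.42% to 29.0% at day 28 and 40.5% to 44.4% at day 56. Intron reads made up 5.37% to 14.6% of reads in genes in normoxia, 14.2% to 24.9% at day 28 and 11.9% to 16.9% at day 56. Normoxia replicate 1, at 14.6%, lay apart from normoxia replicates 2 and 3 (6.599% and 5.37%) and also on the first principal component, where it stood with the 6 Sugen-hypoxia libraries. The numbers that open the column names, whose meaning the headers do not give, were 46 and 47 for replicate 1 of normoxia and of day 56, 61 to 64 for their other replicates, and 68 to 70 for day 28. Results that rest on normoxia replicate 1 are given with and without it.

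Of the 76 genes, 72 passed the filter on low counts and were tested. Their mean RPKM over the 9 libraries (reads scaled by exon length and library total, by the authors) had a median of 9.09 and ran from 2.26 to 32.6, a 14.4-fold range. The highest level per length was that of Mrpl23, a protein at the mouth of the exit tunnel, at 32.6 ± 7.25 RPKM (SD, n = 9). It was followed by the mitochondria-specific Mrpl54 (26.8 ± 8.72 RPKM, SD, n = 9) and by Mrpl17 (26.8 ± 8.13 RPKM, SD, n = 9), a counterpart of a bacterial protein. The ranges of mean ± SD overlapped between neighbours in this order, and the differences between them were not tested. The lowest levels were those of Mrpl47 (2.26 ± 0.825 RPKM, SD, n = 9), Mrps36 (2.64 ± 0.495 RPKM, SD, n = 9) and Mrpl50 (2.95 ± 1.36 RPKM, SD, n = 9). The large-subunit and small-subunit names had like medians, 9.08 and 9.40 RPKM.

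The 4 genes that were not tested were Mrpl36, Mrpl53 and Mrps21l, each with 0 reads in all 9 libraries, and Mrpl1. A count of 0 allows up to 0.0762 to 0.195 CPM per library (3 reads; CPM are exon reads over the library size as scaled by TMM, and the limit covers counting error only). Mrpl1, a large-subunit protein with a bacterial counterpart, had 23, 31 and 4 reads at day 28, 0 in each library at day 56, and 0, 15 and 10 in normoxia. Only 24.1% of its reads mapped to 1 place, so its level is uncertain. The share mapping to 1 place was also under 80% in Mrpl30 (74.3%) and Mrps18a (73.4%), whose values are uncertain for the same reason. It was at least 80% in the other 70 tested genes. This matters for the family because a RefSeq gene table of another assembly, GRCr8, names 40 pseudogenes after its members, and the deposited exon reads include reads that map to several places.

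At day 56, 5 of the 72 genes fell and 0 rose (edgeR quasi-likelihood test, Benjamini-Hochberg adjusted p under 0.05 over all 12447 genes tested). Of all genes, 3.7% were called lower in this comparison, 3.42% higher and 7.12% in either direction, so the share of members called lower, 6.94%, stood a little above the background. The 5 genes were Mrpl50, Mrpl51, Mrpl18 and Mrpl34 of the large subunit and Mrps14 of the small subunit. With DESeq2 24 fell and 1, Mrps2, rose, where 10.6% of all genes were called lower and 8.96% higher. In bulk samples, fewer cells of a type and less RNA per cell cannot be told apart.

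Mrpl50 (ENSRNOG00000053615, rn6 chromosome 5, 64784169 to 64789318), a mitochondria-specific protein of the large subunit, had the largest fall. It stood at 2.72, 3.45 and 4.32 CPM at day 56, against 6.71, 14.4 and 16.7 CPM in normoxia. All 3 day 56 values lay below all 3 of normoxia, where replicate 1 was the lowest by a wide gap. The log2 fold change was -1.84 (SE 0.37, edgeR adjusted p = 0.0238). Day 28 lay between them, at 4.36, 4.92 and 7.39 CPM, and the highest of these overlapped with normoxia replicate 1.

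Mrpl51 (ENSRNOG00000019165, rn6 chromosome 4, 157705789 to 157708748), also mitochondria-specific, was the called gene with the tightest groups. It had 6.49, 7.02 and 5.90 CPM at day 56, against 13.1, 11.3 and 12.6 CPM in normoxia. Here normoxia replicate 1 was the highest of its group, and the groups did not overlap. Mrpl51 fell by 0.93 on the log2 scale (SE 0.19, edgeR adjusted p = 0.0239). Its day 28 values, 6.73, 7.79 and 9.37 CPM, were below all of normoxia too but did not pass (log2 fold change -0.63, SE 0.18, edgeR adjusted p = 0.0950).

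Mrpl18 (ENSRNOG00000014582, rn6 chromosome 1, 48033767 to 48038726) is the counterpart of a bacterial protein of the central protuberance, the part of the large subunit that faces the small one. It had 13.2, 10.5 and 12.4 CPM at day 56, against 14.3, 42.4 and 42.6 CPM in normoxia. The groups were separate, but by a narrow gap between day 56 replicate 1 and normoxia replicate 1. The log2 fold change was -1.46 (SE 0.37, edgeR adjusted p = 0.0466). Mrps14 (ENSRNOG00000002569, rn6 chromosome 13, 77940453 to 77946201), in the head of the small subunit, had 7.76, 6.01 and 7.47 CPM at day 56, against 8.87, 24.5 and 23.8 CPM in normoxia (log2 fold change -1.43, SE 0.34, edgeR adjusted p = 0.0407). Mrps14 showed the same arrangement, with normoxia replicate 1 just above the day 56 libraries.

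Mrpl34 (ENSRNOG00000017552, rn6 chromosome 16, 19874033 to 19874768), one of the smallest proteins of bacterial descent in the large subunit, had 6.34, 7.56 and 9.05 CPM at day 56, against 10.1, 23.0 and 20.4 CPM in normoxia. It fell by 1.22 on the log2 scale (SE 0.29, edgeR adjusted p = 0.0410), and the groups did not overlap. Over the 25 other settings in which each gene was fitted, Mrpl50 was called in 20, Mrpl51 in 17, Mrpl34 in 13, Mrps14 in 12 and Mrpl18 in 11. The highest adjusted p was 0.0972 for Mrpl50, 0.312 for Mrpl51, 0.188 for Mrpl34, 0.212 for Mrps14 and 0.261 for Mrpl18, and each of the 5 kept its sign.

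**Figure D1:**
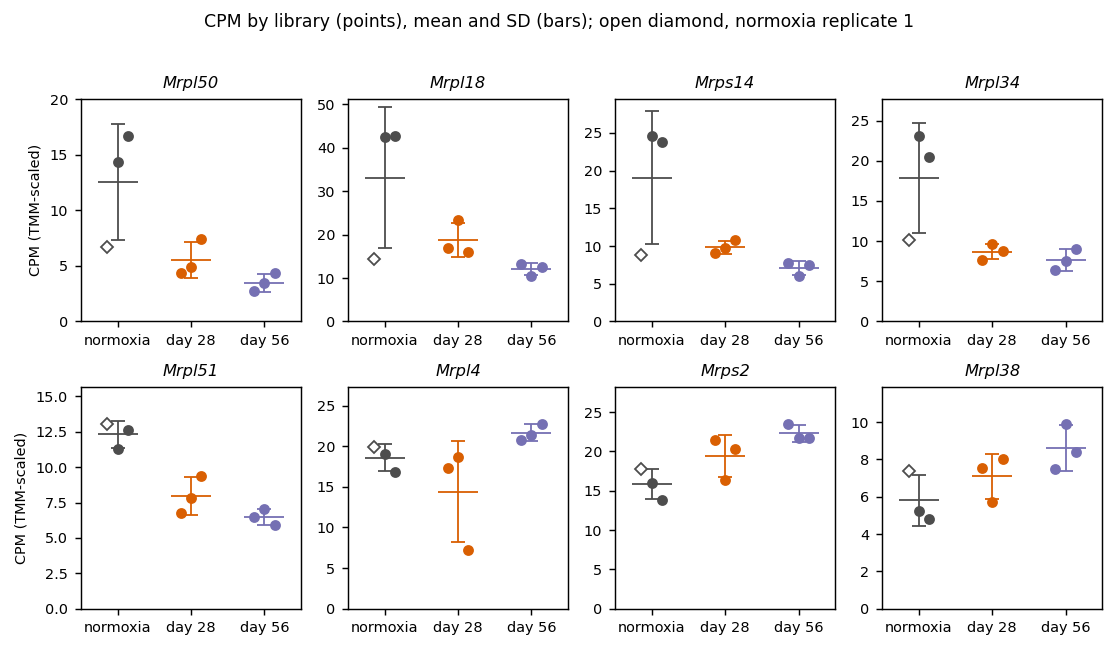
CPM (TMM-scaled) of 8 mitoribosomal genes in each library, by group in order of day; points are libraries, bars the mean and SD of 3, and the open diamond is normoxia replicate 1. In Mrpl50, Mrpl18, Mrps14 and Mrpl34 the diamond lies near the Sugen-hypoxia libraries, in Mrpl51 all 3 normoxia libraries lie above all 6 of Sugen-hypoxia, and Mrpl4, Mrps2 and Mrpl38 were highest at day 56.

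The bases just upstream of the called genes are shown because the genes moved together at day 56, and those of the 3 genes with the highest level per length are shown beside them. Each is the run of 150 bases that ends 1 base before the annotated start, from the RefSeq promoter table on GRCr8, written from 5′ to 3′ in the direction of the gene. Capitals mark letters of 4 motifs searched on both strands: CCGGAAG, bound by ETS factors such as GABP; AAGATGGC, bound by YY1; GCGCA, any base and GCGC, bound by NRF1; and ACTACA, any 2 bases and TCCC, the front of a long element bound by ZNF143 in human promoters. The last was added after the windows had been read.
Mrpl50, chr5:68668088-68668237, minus strand: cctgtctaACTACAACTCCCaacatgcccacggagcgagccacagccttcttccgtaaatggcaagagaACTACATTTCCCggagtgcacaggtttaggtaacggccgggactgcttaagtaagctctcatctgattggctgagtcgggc
Mrpl34, chr16:18186297-18186446, plus strand: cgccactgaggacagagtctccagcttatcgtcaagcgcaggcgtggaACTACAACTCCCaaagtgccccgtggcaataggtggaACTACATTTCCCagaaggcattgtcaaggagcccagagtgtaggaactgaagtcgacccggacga
Mrpl51, chr4:159677838-159677987, plus strand: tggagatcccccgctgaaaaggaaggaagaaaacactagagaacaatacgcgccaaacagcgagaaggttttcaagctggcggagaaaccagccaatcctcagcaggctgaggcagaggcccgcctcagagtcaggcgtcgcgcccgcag
Mrpl18, chr1:50384802-50384951, plus strand: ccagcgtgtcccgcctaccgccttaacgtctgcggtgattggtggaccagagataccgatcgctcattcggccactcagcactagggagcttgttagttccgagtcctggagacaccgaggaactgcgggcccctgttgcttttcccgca
Mrps14, chr13:74962447-74962596, plus strand: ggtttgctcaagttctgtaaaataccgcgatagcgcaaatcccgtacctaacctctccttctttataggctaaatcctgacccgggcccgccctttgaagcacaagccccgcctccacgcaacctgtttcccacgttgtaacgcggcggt
Mrpl23, chr1:207116780-207116929, plus strand: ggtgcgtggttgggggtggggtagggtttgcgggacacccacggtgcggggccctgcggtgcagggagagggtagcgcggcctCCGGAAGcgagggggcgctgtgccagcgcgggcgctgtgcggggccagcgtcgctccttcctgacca
Mrpl54, chr7:9103375-9103524, plus strand: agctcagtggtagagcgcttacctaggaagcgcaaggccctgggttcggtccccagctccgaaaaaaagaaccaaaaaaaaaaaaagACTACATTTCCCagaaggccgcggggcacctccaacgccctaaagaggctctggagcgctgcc
Mrpl17, chr1:169575700-169575849, minus strand: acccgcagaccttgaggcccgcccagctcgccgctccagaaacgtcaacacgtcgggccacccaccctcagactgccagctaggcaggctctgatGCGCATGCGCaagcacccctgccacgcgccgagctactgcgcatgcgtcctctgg

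The windows of Mrpl50 and Mrpl34 each held the ZNF143-type letters in 2 places, and Mrpl54 held them once. Those of Mrpl51, Mrpl18 and Mrps14 held none of the 4 motifs in these 150 bases. Motifs were counted over the whole promoter window of the table, which runs from 250 bases before to 50 after the start and was listed for 60 of the 76 genes. CCGGAAG was found in 35% of the 60, in 18.8% of the 9190 tested genes with a window and in 9.63% of all 27457 windows by gene. AAGATGGC was found in 25% of the 60, in 5.94% of tested genes and in 3.62% of all, and the NRF1 letters in 15%, 10.5% and 4.82%. At least 1 of these 3 motifs was in 34 of the 60 windows (56.7%), against 30.8% of tested genes and 16.2% of all.

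The ZNF143-type letters were in 4 of the 60 windows (6.67%), those of Mrpl34, Mrpl42, Mrpl50 and Mrpl54, in 4.34% of tested genes and in 1.90% of all. The median log2 fold change of these 4 was -1.13 at day 56, against -0.60 for the 53 tested genes without the letters; the motif was picked after the calls were known, so this is a description. Genes with and without CCGGAAG had day 56 medians of -0.58 and -0.72, those with and without AAGATGGC -0.69 and -0.60, and those with and without the NRF1 letters -0.46 and -0.64. Plain CCAAT letters were in 45% of the 60 windows and 39.4% of tested genes, GGGCGG letters in 50% and 63.3%, CACGTG letters in 10% and 9.62%, and TATAAA letters in 13.3% and 7.497%. A match is a description of letters and not a site of binding, and no match says only that the letters are not in this window.

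A head-to-head neighbour, transcribed the other way from a start within 1000 bases, was found for 18 of the 60 genes (30%), for 17.1% of tested genes and for 11.3% of all genes with a window. In 1 such pair both genes were mitoribosomal: the starts of Mrpl46 and Mrps11 were 234 bases apart. Other neighbours had mitochondrial roles, such as Ndufb5 of respiratory complex I beside Mrpl47 (244 bases) and Ptcd2, an RNA-binding protein of mitochondria, beside Mrps27 (91 bases). The called Mrpl51 lay 50 bases from the condensin gene Ncapd2, and Mrpl18 lay 425 bases from Tcp1, a subunit of the cytosolic chaperonin. The sources used here do not state whether the libraries kept strand, so reads where such genes overlap could not be told apart.

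As a family the genes were lower than normoxia at both days, below the threshold of the test for most. At day 56, 67 of the 72 log2 fold changes were below 0, with a median of -0.68 against -0.04 for all genes tested. At day 28, 69 of 72 were below 0, with a median of -0.61 against -0.01 for all genes. An unadjusted p under 0.05 in the lower direction was found for 41 genes at day 56 and 36 at day 28, which is 56.9% and 50% of the members, where 17.6% and 16.6% of all genes had one. Both comparisons share the normoxia libraries. The direction was the same with TMM, RLE and upper-quartile factors and with the globin genes taken out. With the intron share of the library as a covariate the day 28 difference was gone. The members' median was then -0.0057, beside -0.0049 for all genes, and 38 of 72 were below 0. On library totals alone the direction turned at day 28, where the members' median was 0.43 and that of all genes 0.96. At day 56 it did not turn on library totals, with a median of -0.29 beside 0.24 for all genes. Relative to all genes the members were thus lower by 0.53 on that scale at both days, against 0.61 and 0.63 with TMM factors. Summed over the members, the deposited RPKM, which carry no such factors, were 820 ± 162 in normoxia, 946 ± 117 at day 28 and 634 ± 51.5 at day 56 (SD, n = 3 each).

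The difference lay in normoxia replicates 2 and 3. The mean log2 CPM of the tested members was 3.49, 3.63 and 3.55 in the day 28 libraries and 3.37, 3.52 and 3.61 at day 56, against 3.47, 4.39 and 4.35 in normoxia. Normoxia replicate 1 thus lay among the Sugen-hypoxia libraries, and the other 2 stood above all of the rest. In 66 of 72 members normoxia replicate 1 was the lowest of its group, as it was in 43.4% of all genes. In 48 of 72 it fell within the range of the 6 Sugen-hypoxia libraries (66.9% of all genes), and in 62 of 72 normoxia replicates 2 and 3 were both above all 6 Sugen-hypoxia libraries (26.8% of all genes). Between normoxia replicate 1 and the mean of replicates 2 and 3 the median difference of the members was -0.999 on the log2 scale, and that of all genes was 0.01.

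**Figure D2:**
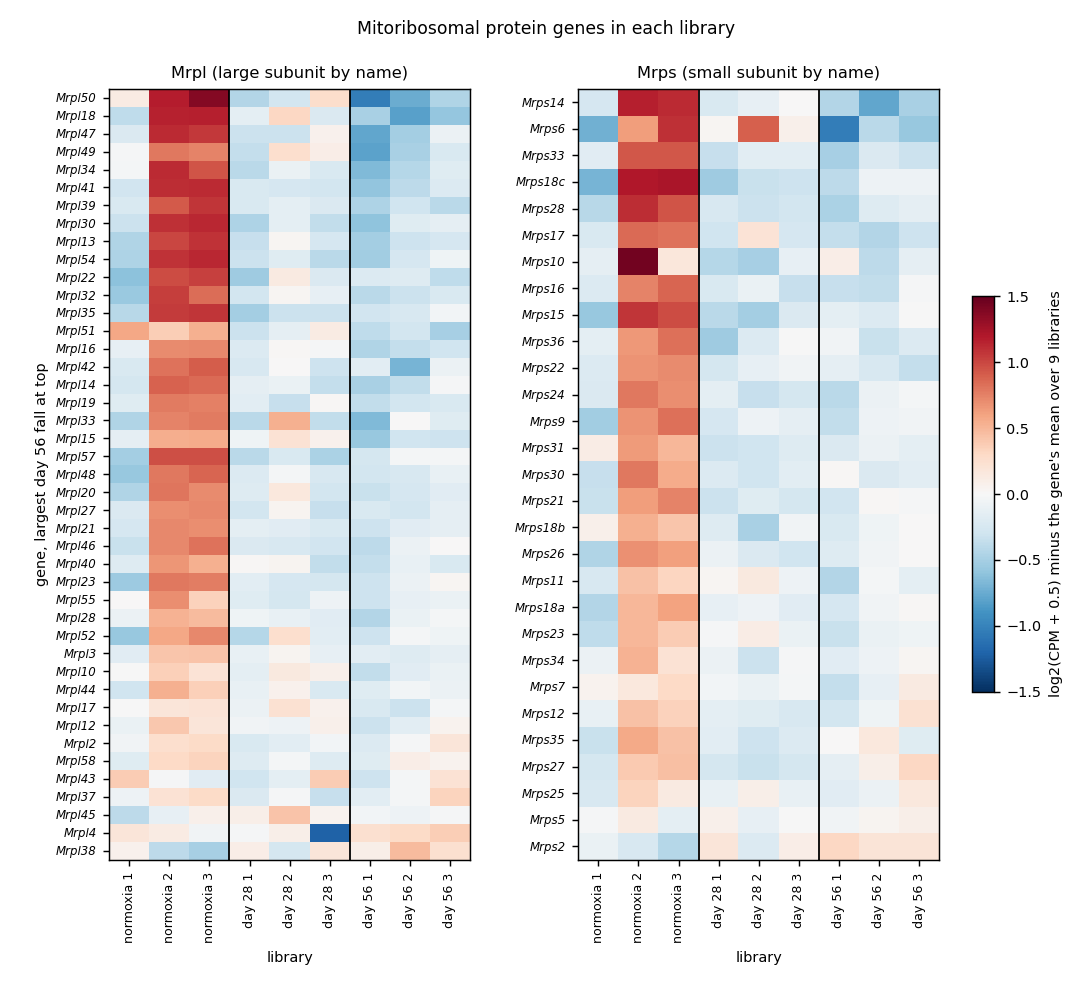
Log2 CPM (with a small constant added) of each of the 72 tested genes in each of the 9 libraries, minus the gene's mean over the libraries (red, above; blue, below); genes run from the lowest day 56 log2 fold change at the top, and lines divide normoxia, day 28 and day 56. The columns of normoxia replicates 2 and 3 are red through most of the list, that of normoxia replicate 1 is pale or blue in most rows, and the rows at the foot (Mrpl4, Mrpl38, Mrps2) lack the pattern.

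Leaving out normoxia replicate 1 changed the counts more than any other single library. Without it 59 of 73 genes fell and 2 rose at day 56, where 21.2% of all genes were called lower and 21.8% higher. At day 28, 55 of 73 fell and 0 rose, where 22.2% of all genes were called lower and 23% higher. Left out together with day 28 replicate 3, it gave 53 genes lower at day 28 and 59 at day 56, where 22.3% and 22.7% of all genes were. Between day 56 and day 28, 3 fell without it, where 3.32% of all genes did: Mrpl15, Mrpl18 and Mrpl1, whose reads are uncertain as given above. Without normoxia replicate 2 or 3, 0 members were called lower at day 56, where 0.252% and 0.323% of all genes were. Without day 56 replicate 1, 2 or 3, 0 were, where 1.35%, 0.142% and 0.253% of all genes were. Without day 28 replicate 1, 2 or 3, 2 were, where 1.37%, 1.98% and 2.4% of all genes were.

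The column numbers divide the normoxia and day 56 libraries into replicate 1 and the other replicates. For normoxia this is the split described above under another name, so a like picture is not separate evidence. The libraries numbered 46 and 47 are replicate 1 of normoxia and of day 56, 1 library on each side. Their difference thus has no measure of spread. Between them the members' median difference (day 56 minus normoxia) was -0.06 on the log2 scale, and 43 of 72 were below 0. Between those numbered 61 to 64 it was -0.88, and 67 of 72 were below 0. Over all genes these medians were -0.0045 and -0.030. With the number series as a term in the fit, 23 members fell and 0 rose at day 56, where 7.78% of all genes were called lower and 7.82% higher, and all 5 genes named above were among those called. Day 28 has a number series of its own, so series and day cannot be told apart there.

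The lower values were found in both subunits. At day 56 the median log2 fold change was -0.73 for the 43 tested Mrpl genes, 40 of them below 0, and -0.55 for the 29 tested Mrps genes, 27 of them below 0. By place in the ribosome, the median was -0.77 for 25 large-subunit proteins with a bacterial counterpart and -0.65 for 19 mitochondria-specific ones, Mrps30 included, which sits in the large subunit despite its name. In the small subunit it was -0.73 for 16 proteins with a bacterial counterpart and -0.38 for 9 mitochondria-specific ones. At day 28 the same 4 classes had medians of -0.66, -0.63, -0.68 and -0.53. The differences between classes were not tested.

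**Figure D3:**
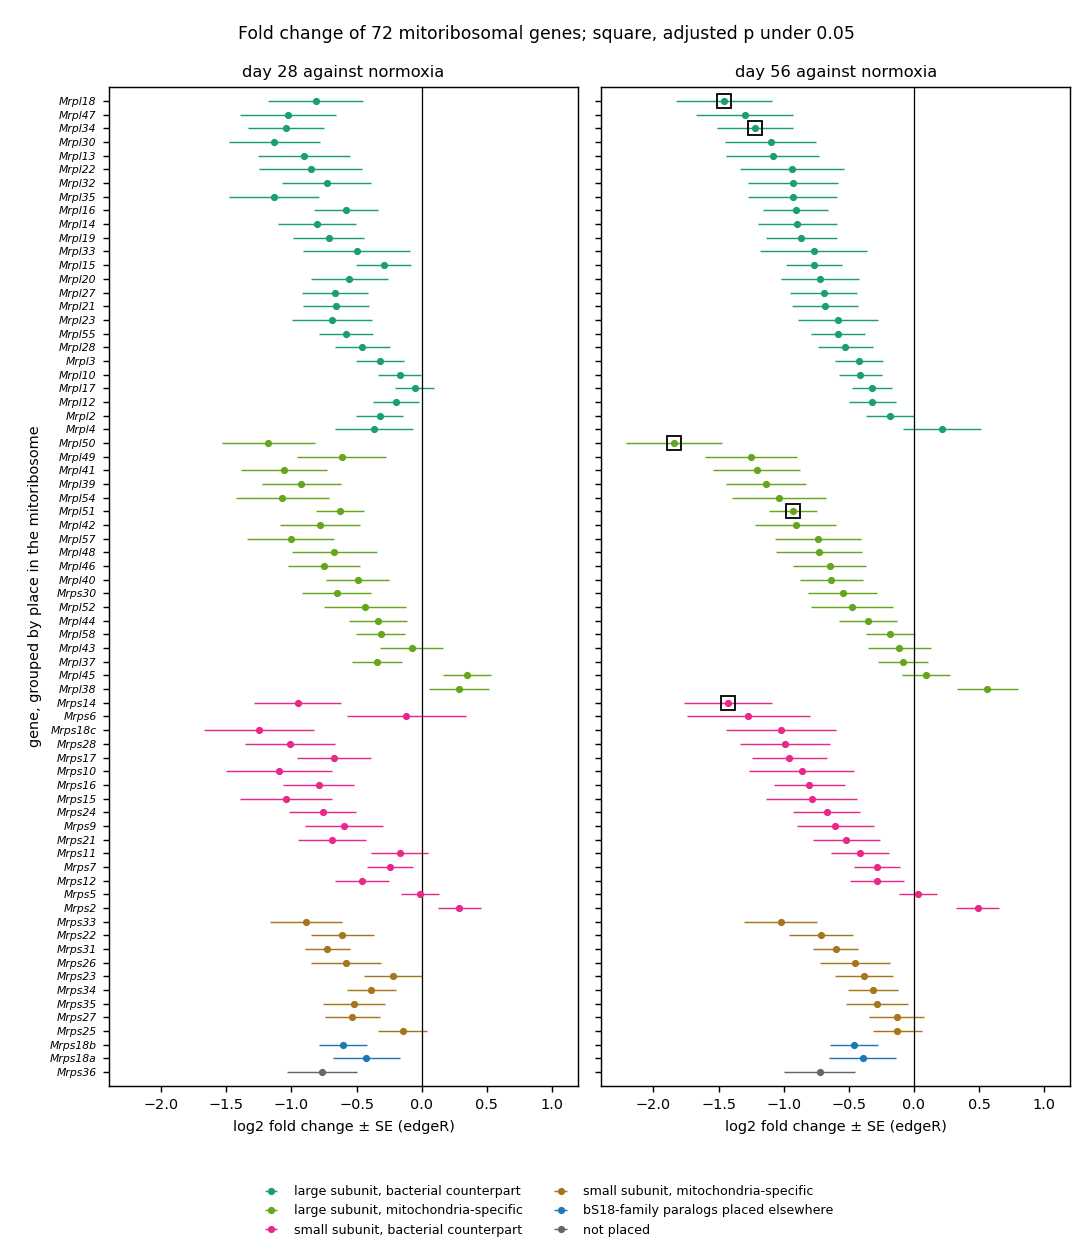
Log2 fold change against normoxia with its SE (edgeR, 3 libraries a group) for the 72 tested genes at day 28 (left) and day 56 (right), coloured by place in the mitoribosome; squares mark adjusted p under 0.05. Most points lie left of 0 in both panels, the 5 squares are at day 56, and Mrpl38, Mrps2 and Mrpl45 lie right of 0 at both days.

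Mammals have 3 homologs of a single bacterial small-subunit protein: Mrps18c takes the bacterial place, Mrps18b sits elsewhere in the small subunit and Mrps18a in the large subunit. Mrps18c had 7.76, 9.83 and 9.82 CPM at day 56, against 6.21, 24.5 and 24.98 CPM in normoxia (log2 fold change -1.02, SE 0.42, edgeR adjusted p = 0.140). Its normoxia values spanned the day 56 ones, with replicate 1 below them and replicates 2 and 3 far above. Mrps18b had 13.7, 15.4 and 16.1 CPM at day 56, against 17.0, 23.6 and 21.6 CPM in normoxia, which did not overlap but did not pass (-0.46, SE 0.19, edgeR adjusted p = 0.131). Mrps18a, whose reads are the less certain, had 10.6, 12.3 and 12.9 CPM at day 56, against 9.25, 18.3 and 19.6 CPM in normoxia (-0.39, SE 0.26, edgeR adjusted p = 0.318).

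Mrps12 and Mrpl12, both close to the work of the ribosome, did not pass. Mrps12, the protein of the decoding centre that checks codon pairing, had 8.02, 9.37 and 11.6 CPM at day 56, against 9.08, 13.5 and 12.7 CPM in normoxia (log2 fold change -0.28, SE 0.21, edgeR adjusted p = 0.375). Mrpl12, the stalk protein that recruits translation factors, had 14.5, 16.4 and 19.0 CPM at day 56, against 17.0, 24.5 and 20.8 CPM in normoxia (-0.32, SE 0.18, edgeR adjusted p = 0.247). Both overlapped between the groups, and on library totals alone their log2 fold changes were 0.054 for Mrps12 and 0.0041 for Mrpl12. Mrps36, which carries a ribosomal name but is in human and yeast a subunit of the alpha-ketoglutarate dehydrogenase complex, had 8.58, 6.98 and 7.71 CPM at day 56, against 7.996, 14.3 and 16.2 CPM in normoxia (-0.72, SE 0.27, edgeR adjusted p = 0.113). It followed the pattern of the family, with normoxia replicate 1 among the day 56 values.

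At day 56 the values of 17 genes lay below all of normoxia (14.9% of all genes did) and those of 3 lay above (15.6% of all genes). The 3, named after their values were seen, were Mrps2, Mrpl38 and Mrpl4. Mrps2, a small-subunit protein with a bacterial counterpart, had 23.5, 21.6 and 21.7 CPM at day 56, against 17.7, 16.0 and 13.9 CPM in normoxia (log2 fold change 0.49, SE 0.17, edgeR adjusted p = 0.0882). The mitochondria-specific Mrpl38 had 7.497, 9.92 and 8.38 CPM at day 56, against 7.37, 5.23 and 4.802 CPM in normoxia (0.56, SE 0.23, edgeR adjusted p = 0.139). In both genes normoxia replicate 1 was the highest of its group, the reverse of most of the family. These were the 2 genes that rose without normoxia replicate 1, with log2 fold changes of 0.59 (edgeR adjusted p = 0.0123) for Mrps2 and 0.79 (edgeR adjusted p = 0.0153) for Mrpl38. Mrpl4, which lines the exit tunnel, had 20.8, 21.4 and 22.8 CPM at day 56, against 19.9, 19.1 and 16.8 CPM in normoxia (0.22, SE 0.30, edgeR adjusted p = 0.646).

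At day 28, 0 of the 72 genes passed in either direction, where 0.129% of all genes did (0.0884% higher and 0.0402% lower). With DESeq2 14 fell and 0 rose, where 7.39% of all genes were called lower and 6.25% higher. The values of 7 genes lay below all of normoxia (11.8% of all genes) and those of 0 lay above (11.4%). The smallest unadjusted p was that of Mrps31, a mitochondria-specific small-subunit protein, which had 11.6, 11.8 and 12.7 CPM at day 28, against 15.8, 23.0 and 20.7 CPM in normoxia (log2 fold change -0.72, SE 0.17, edgeR adjusted p = 0.0796). The groups were separate, and the day 28 values were close together.

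The next were Mrpl34, Mrpl51, Mrpl50 and Mrpl35. Mrpl34 had 7.69, 9.62 and 8.76 CPM at day 28, all below the 3 normoxia values given above (log2 fold change -1.04, SE 0.29, edgeR adjusted p = 0.0934), and Mrpl50 had -1.18 (SE 0.36, edgeR adjusted p = 0.0996). Mrpl35, of bacterial descent, had 8.38, 9.65 and 9.63 CPM at day 28, against 8.996, 25.7 and 26.1 CPM in normoxia (-1.13, SE 0.34, edgeR adjusted p = 0.101). Normoxia replicate 1 lay within the day 28 range of Mrpl35. Among the 3 homologs, Mrps18c had the lowest day 28 fold change of the 72 genes, at 6.99, 8.10 and 8.28 CPM (log2 fold change -1.25, SE 0.43, edgeR adjusted p = 0.117). Mrps18b was at 13.99, 11.3 and 15.5 CPM (-0.61, SE 0.19, edgeR adjusted p = 0.102) and Mrps18a at 11.6, 12.0 and 11.3 CPM (-0.43, SE 0.26, edgeR adjusted p = 0.281). Mrps12 had a day 28 log2 fold change of -0.46 (SE 0.21, edgeR adjusted p = 0.179), Mrpl12 one of -0.20 (SE 0.18, edgeR adjusted p = 0.461) and Mrps36 one of -0.77 (SE 0.27, edgeR adjusted p = 0.123).

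Between day 56 and day 28, 0 of the 72 genes passed in either direction, where 0.546% of all genes did (0.426% higher and 0.121% lower). An unadjusted p under 0.05 was found for 2, both lower, where 9.38% of all genes had one in that direction, and DESeq2 called 0, where 8.73% of all genes passed. The median log2 fold change was -0.03, beside -0.01 for all genes, and 41 genes were below 0. With the intron share of the library as a covariate it was -0.33, beside -0.011 for all genes, and 65 genes were below 0. On library totals alone all 72 were below 0, with a median of -0.72, beside -0.70 for all genes. The 2 subunits leaned apart by a small amount: 31 of 43 Mrpl genes were below 0 (median -0.10) and 10 of 29 Mrps genes were (median 0.05), a split that was not tested. The values of 10 genes lay lower without overlap (17.4% of all genes) and those of 5 higher (17.8%).

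Mrps6, a small-subunit protein of bacterial descent with 75.3% of its reads in introns, had the smallest p. It had 2.28, 3.78 and 3.35 CPM at day 56, against 5.32, 10.1 and 5.501 CPM at day 28 (log2 fold change -1.15, SE 0.47, edgeR adjusted p = 0.224), and the groups were separate. Mrpl15, in the large subunit, had 11.3, 13.7 and 13.6 CPM at day 56, against 16.2, 19.7 and 17.7 CPM at day 28 (-0.48, SE 0.21, edgeR adjusted p = 0.267). The difference of Mrpl4 (0.59, SE 0.30, edgeR adjusted p = 0.340) rested on day 28 replicate 3, at 7.26 CPM beside 17.3 and 18.7 CPM in the other day 28 libraries. Mrps27, an RNA-binding protein of the small subunit, had 16.9, 19.8 and 23.2 CPM at day 56, against 15.5, 14.6 and 15.4 CPM at day 28 (0.40, SE 0.21, edgeR adjusted p = 0.365). Mrpl50 was lower by 0.66 (SE 0.36, edgeR adjusted p = 0.370), and the fixed genes Mrps18a, Mrps18b, Mrps18c, Mrps12, Mrpl12 and Mrps36 had log2 fold changes between -0.12 and 0.23, with adjusted p from 0.722 to 0.968 (edgeR).

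The intron share of the reads differed between libraries along with the level of the family. Over the members, intron reads were 36.0%, 29.8% and 29.7% of their gene reads at day 28 and 40.6%, 33.4% and 30.5% at day 56, against 34.2%, 15.6% and 14.7% in normoxia. Normoxia replicates 2 and 3, where the exon reads of the genes were highest, thus had the lowest intron share. With the intron share of the library as a covariate the members' median at day 28 was -0.0057, beside -0.0049 for all genes, and 38 of 72 were below 0. At day 56 it was -0.33, beside -0.03 for all genes, and 65 were below 0. In that fit 1 gene, Mrpl50, was called at day 56 (0.362% of all genes were called lower). With the log2 globin share as a covariate the medians were -0.53 and -0.68, and Mrpl50 and Mrpl51 were called at day 56 (1.86% of all genes were called lower).

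The members are short, and short genes were low in general. Over the members the Pearson correlation of log2 exon length with log2 fold change was 0.16 at day 28 and 0.25 at day 56. Over all genes tested it was 0.30 and 0.23. The 24 shortest members, with 236 to 889 exon bases, had a day 56 median of -0.85, and all 1153 tested genes of 174 to 889 bases had -0.52. The 24 of middle length, with 890 to 1429 bases, had -0.59, against -0.28 for the 1685 genes of that length. The 24 longest, with 1430 to 4125 bases, had -0.57, against 0.03 for 9609 genes of 1430 to 28192 bases. At day 28 these pairs were -0.71 and -0.64, -0.59 and -0.27, and -0.53 and 0.08. Members were therefore below genes of the same length class at both days. The gap was widest in the longest class, where the genes compared reached far greater lengths than the members, so that class is not matched for length. What part the intron share or length had in the result was not tested further.

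Related groups of genes were counted beside the family, with no test of the lists. At day 56 their counts stand beside the 3.7% of all genes called lower and the 3.42% called higher. Ribosomal proteins of the mitochondrion that carry other names, of which 4 of 6 were in the table, included Chchd1, which fell at day 56. It had 7.05, 9.50 and 9.08 CPM at day 56, against 10.9, 27.7 and 28.5 CPM in normoxia (log2 fold change -1.39, SE 0.33, edgeR adjusted p = 0.0407). Dap3, the GTP-binding protein of the small subunit, did not pass, at 40.8, 41.4 and 45.4 CPM at day 56 against 36.0, 41.4 and 39.9 CPM in normoxia. Of 3 further genes written in lower case in the table and so not matched by the rule, mrpl11, mrpl24 and mrpl9, 0 passed, with day 56 log2 fold changes of -0.79, -0.27 and -0.01.

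Of 16 mitochondrial translation factors 3 fell at day 56 and 0 rose, with a median of -0.62: Taco1, a translational activator of cytochrome oxidase (-1.46, SE 0.28, edgeR adjusted p = 0.0209), Gfm2, a ribosome recycling factor (-0.93, SE 0.20, edgeR adjusted p = 0.0281), and Lrpprc, which stabilises mitochondrial mRNA (-0.91, SE 0.19, edgeR adjusted p = 0.0259). Gfm2 had 7.80, 6.303 and 6.602 CPM at day 56, against 12.95, 12.5 and 14.02 CPM in normoxia, so that normoxia replicate 1 stood with its group. Of 18 genes of mitochondrial transcription and RNA processing 4 fell and 0 rose (median -0.53), among them the termination factor family members Mterf2 (-1.73, SE 0.27, edgeR adjusted p = 0.0119) and Mterf1 (-1.32, SE 0.23, edgeR adjusted p = 0.0154) and the elongation factor Tefm (-1.41, SE 0.33, edgeR adjusted p = 0.0380). Of 27 assembly factors 1 fell, Mterf3 (-0.94, SE 0.23, edgeR adjusted p = 0.0407), and 0 rose (median -0.28). The 17 mitochondrial aminoacyl-tRNA synthetases had a median of 0.00, with 1 that rose, Mars2 (1.18, SE 0.23, edgeR adjusted p = 0.0213), and 0 that fell.

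The 73 tested cytosolic ribosomal protein genes had a median of -0.65 at day 56, with 0 that fell and 1 that rose, Rplp2 (0.91, SE 0.22, edgeR adjusted p = 0.0407). The 91 nuclear genes of oxidative phosphorylation had a median of -0.71, with 2 that fell, Ndufb3 (-1.27, SE 0.33, edgeR adjusted p = 0.0494) and Sdhaf2 (-0.90, SE 0.20, edgeR adjusted p = 0.0336), and 0 that rose. This list was taken by the start of the symbol, so that assembly factors such as Sdhaf2 were among its genes. At day 28 these 2 lists had medians of -0.81 and -0.73, and 0 members of any of these lists were called at day 28 or between the days. The 13 mitochondrially encoded genes, the messages that the mitoribosome translates, had medians of -0.39 at day 28 and -0.86 at day 56 with 0 calls. Their summed level was 27781 to 34110 CPM at day 28 and 16991 to 29303 CPM at day 56, against 25157 to 53251 CPM in normoxia.

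**Figure D4:**
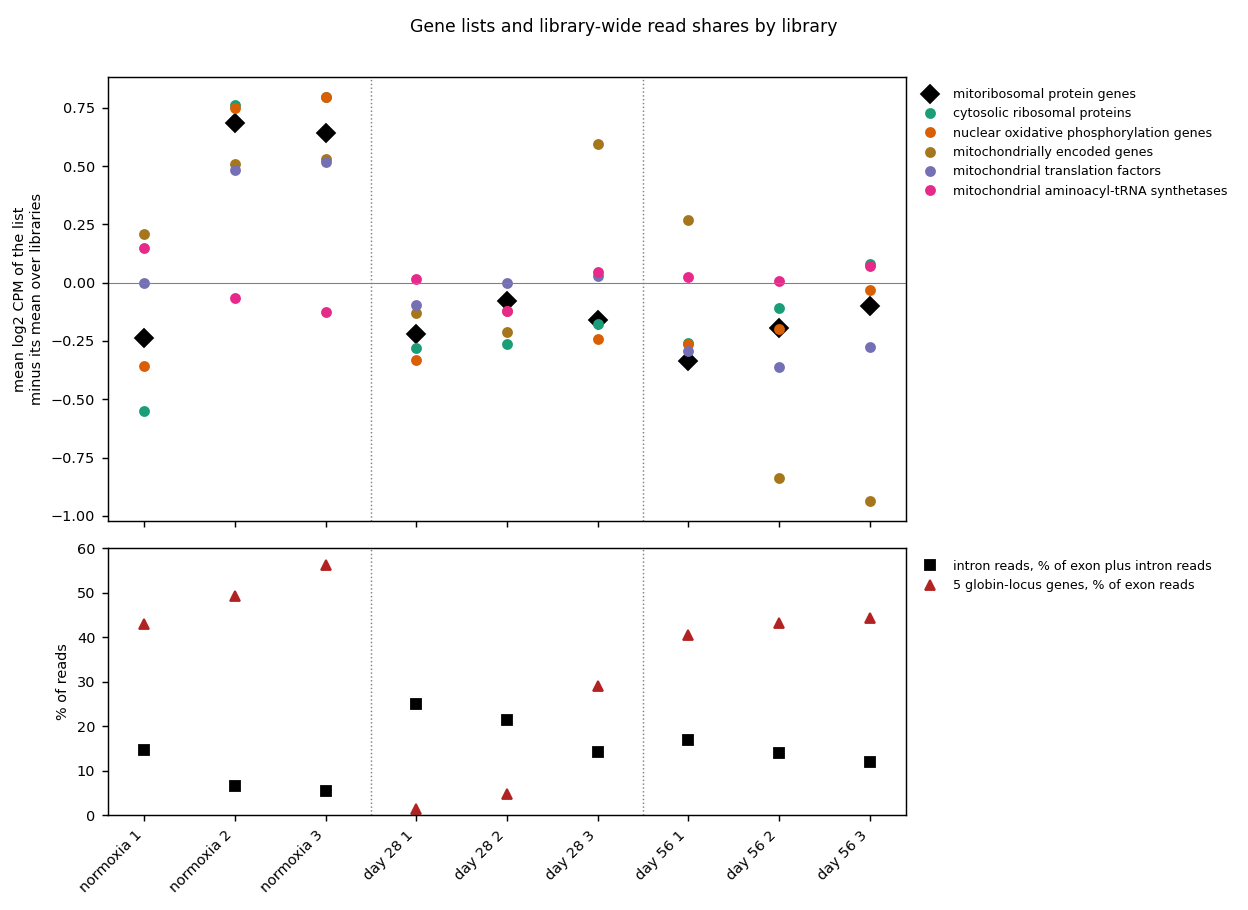
Top, mean log2 CPM of the tested genes of each list minus the list's mean over 9 libraries; bottom, intron reads as % of exon plus intron reads (squares) and 5 globin-locus genes as % of exon reads (triangles), by library. The mitoribosomal genes (diamonds) are high in normoxia replicates 2 and 3, as are the cytosolic ribosomal and oxidative phosphorylation lists, and those 2 libraries have the lowest intron shares (6.599% and 5.37%), while the synthetases stay near 0.

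Markers of the blood cells were compared with the label. T cell markers, 15 of 15 in the table, summed to 1525 to 2527 CPM at day 28 and 2158 to 2690 CPM at day 56, against 2051 to 2233 CPM in normoxia, with median log2 fold changes of -0.096 at day 28 and 0.18 at day 56. B cell markers had medians of -0.54 at day 28 and -0.27 at day 56 over 9 genes. They summed to 592 to 1142 CPM at day 28 and 555 to 911 CPM at day 56, against 1061 to 1799 CPM in normoxia. NK cell markers had medians of -0.29 and 0.61 over 10 genes, 9 of the 10 above 0 at day 56. Neutrophil markers, which mononuclear cells should hold little of, summed to 110 to 297 CPM at day 28 and 77.6 to 126 CPM at day 56, against 50.6 to 106 CPM in normoxia, with medians of 0.95 and 0.53 over 11 tested genes. Erythroid markers were present too: the 19 in the table summed to 291 to 3227 CPM at day 28 and 7657 to 8952 CPM at day 56, against 5150 to 12759 CPM in normoxia. At day 28 all 19 were below 0 in log2 fold change (median -2.77) and at day 56 15 were (median -0.49). Of them 2, Tmcc2 (log2 fold change 3.33) and Xpo7 (0.73), were called higher at day 56. These 2 were also called higher at day 56 than at day 28. Platelet markers had medians of -1.61 at day 28 and -0.17 at day 56 over 15 genes, and monocyte markers had 1.24 and 0.03 over 11. Cycling markers, 15 of 15 tested, had medians of -0.47 and -0.17. No marker in the table was at 0 in all libraries. The part of these cells in the family's difference was not tested.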

How the data were processed

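The authors deposited 1 table for the series with exon reads, uniquely mapped exon reads, exon plus intron reads, intron reads and RPKM per gene and library, per the file headers. The build was rn6, per the submitters' processing notes, and no aligner is given in the sources used here. The authors' deposited exon columns hold raw counts, reads with several places of mapping among them. In replicate 1 of each group the deposited unique and intron reads are formally estimated counts, since a broken line holds a fraction, but they are whole on intact lines and were not rounded. The deposited RPKM were computed by the authors, per the file headers, and served for levels between genes and for the members' sums by group. Of 22085 lines 22077 were intact; 8 broken lines (Bmp4, Ctnnb1, Shh, Wnt5a) were left out. In 25 lines the symbol had become a date and 262 symbols carried a suffix, 0 of them members. A further 81 columns of values per sample were not used.

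Genes were tested with edgeR 4.0.16 in R 4.3.3 (TMM factors, filterByExpr, robust quasi-likelihood F-test) over all 9 libraries with 1 mean per group, and p-values were adjusted by Benjamini-Hochberg over 12447 genes at 0.05. DESeq2 1.42.0 was an alternative. The fit was tested on simulated data with less spread than these libraries and no library apart from its group, so its power here was not measured. SE was derived from the F statistic, and log2 CPM used a prior count of 2. Every pair of libraries within a group differed by more than sampling noise. In each comparison the text names up to 8 called members in each direction, the 5 of smallest p where fewer than 5 were called, and Mrps18a, Mrps18b, Mrps18c, Mrps12, Mrpl12 and Mrps36; it also names the 3 highest and 3 lowest levels, members under 80% uniquely mapped, and up to 3 called genes per related list. Members, lists and tests were chosen with earlier results of these data known. Promoter windows came from RefSeq on GRCr8.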

Additional observations from a re-analysis of the deposited data

How the results depend on the processing

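At day 28 the count of members called lower was 0, but 14 with DESeq2, 53 with normoxia replicate 1 and day 28 replicate 3 left out together, and 0 to 55 with 1 library left out. On library totals alone 19 were higher, where 56.1% of all genes were. At day 56 the count of 5 lower became 24 with DESeq2 and 23 with the column number series as a term. It became 59 with both libraries left out, 2 when adjusted for globin share and 1 for intron share. With 1 library left out it was 0 to 59. The shares of all genes in these settings are given above. With exon plus intron reads it was 9, where 4.28% of all genes were lower. It was 1 with the 2 compared groups alone and 1 on library totals alone, where 1.08% and 0.121% of all genes were lower. The count of 0 higher became 1 with DESeq2 and 0 to 2 with 1 library left out. It became 2 with both libraries left out, where 23.1% of all genes were higher. Between day 56 and day 28 the count of 0 lower became 3 with both libraries left out, where 5.15% of all genes were lower. It became 21 on library totals alone, where 19.9% of all genes were lower, and 0 to 3 with 1 library left out. The cause was not tested. RLE and upper-quartile factors, removal of globin genes, either filter, estimation without robustness and unique reads gave 5 lower at day 56. In these settings 2.54% to 4.22% of all genes were called lower. The column series, library totals and the pair left out were chosen after seeing the data.

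With the replicate number as a block 4 were lower at day 56, where 1.87% of all genes were. In the other comparisons 0 were, where 1.37% (day 28) and 0.193% (day 56 against day 28) of all genes were. Deviations of same-numbered libraries correlated by -0.146 to 0.167, so the numbers were not taken as pairs.

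Some signs turned. Adjusted for intron share, the day 28 values were 0.086 for Mrpl50, 0.22 for Mrps18a, 0.17 for Mrps18c and 0.18 for Mrpl12, and those between day 56 and day 28 were -0.30 for Mrps18a, -0.050 for Mrps18b, -0.45 for Mrps18c, -0.023 for Mrps12 and -0.31 for Mrps36. Adjusted for globin share, day 56 against day 28 gave -0.016 for Mrps18c and -0.35 for Mrps36, with intron reads added -0.15 for Mrps18a and -0.10 for Mrps36, and with 1 library left out -0.028 to 0.11 for Mrps18a and -0.12 to 0.18 for Mrps36. On library totals alone, where the median of all genes moved by 0.96 at day 28 and by -0.68 between the days, day 28 gave 0.29 for Mrps31, 0.033 for Mrpl34, 0.31 for Mrpl51, 0.66 for Mrps18a, 0.39 for Mrps18b, 0.57 for Mrps12, 0.81 for Mrpl12 and 0.28 for Mrps36. Day 56 gave 0.054 for Mrps12 and 0.0041 for Mrpl12. Day 56 against day 28 gave -0.16 for Mrpl4, -0.29 for Mrps27, -0.66 for Mrps18a, -0.53 for Mrps18b, -0.44 for Mrps18c, -0.52 for Mrps12 and -0.61 for Mrps36. Of 803 refits of named genes, these included, 675 kept sign and side of the threshold, 52 lost the call, 43 gained it and 33 turned. With 3 libraries a group, misses do not show that a gene did not differ.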
